A study of Mus musculus with 15 samples.

Results

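FoxO transcription factors and the antioxidant enzymes that dispose of superoxide and peroxides were followed in hematopoietic stem cells (HSCs). The 10 genes were chosen by symbol: Foxo1, Foxo3, Sod1, Sod2, Cat, Gpx1, Gpx3, Gpx4, Prdx1 and Txnip. All 10 were found among the 20696 genes of the deposited table, and all 10 were among the 11345 genes with a mean of at least 1 FPKM (fragments scaled for transcript length and sequencing depth) that were tested. HSCs had been sorted by FACS from mouse bone marrow, and bulk RNA libraries were made from 2 ng of total RNA with SMART-Seq v4, a method that copies full-length polyadenylated RNA. Per the labels there were 5 libraries from aged Thbs1 knockout mice (18 months), 5 from aged control mice (18 months) and 5 from young control mice (3 months), a design that sets the loss of thrombospondin-1, a secreted matrix protein, against normal aging. No strain, allele, control genotype or sort gate was given in the labels used here. The library names in the table's header gave the sex: 3 female and 2 male libraries were labelled aged Thbs1 knockout, 2 and 3 were aged controls, and 3 and 2 were young controls. Nothing in the labels says whether the 5 libraries of a group came from 5 animals, although both sexes in each group mean that they did not all come from a single animal. A p-value here sets the difference between groups against the spread of these libraries within groups. Part of that spread may be technical.

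As background, FoxO factors carry the output of insulin and growth factor signaling: AKT phosphorylates them and keeps them out of the nucleus, and when that signal is low they enter it and switch on genes of cell cycle arrest, stress resistance and metabolism. In mouse HSCs, combined loss of FoxO factors, or of Foxo3 alone, is known to raise reactive oxygen species and to deplete the stem cell pool. Superoxide dismutases turn superoxide into hydrogen peroxide, which catalase, glutathione peroxidases and peroxiredoxins then reduce, and TXNIP binds thioredoxin and restrains this cycle.

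Gpx1, Gpx3 and Gpx4 encode selenoproteins, whose active site holds a selenocysteine read from an in-frame TGA codon. The coding sequence around that codon is shown for the 3 genes because only Gpx3 of them passed the test below. It is given with 15 bases on each side, 5′ to 3′, from GENCODE M21 transcripts on GRCm38, and with the TGA in capitals.
Gpx1, codon 47, chr9:108339451-108339453, plus strand: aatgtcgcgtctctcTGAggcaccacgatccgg
Gpx3, codon 73, chr11:54907256-54907258, plus strand: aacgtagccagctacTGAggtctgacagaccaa
Gpx4, codon 129, chr10:80054737-80054739, plus strand: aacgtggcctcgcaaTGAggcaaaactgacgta
Of the 33 bases, 20 were identical between Gpx3 and Gpx4 (60.6%), 19 between Gpx1 and Gpx4 (57.6%) and 16 between Gpx1 and Gpx3 (48.5%). The 33-base windows of the 3 genes can thus be told apart by sequence.

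Promoters, 250 bases before to 50 bases after the start of transcription, were taken from RefSeq (GRCm38.p6), which matched all 10 genes. The FoxO core (GTAAACA, or TGTTTAC on the other strand) was found in 1 of the 10 genes, Txnip, 121 bases before the start, and in 3.65% of the 32851 promoter windows of the same length. The core of the antioxidant response element, the site of NRF2 (TGACNNNGC, or GCNNNGTCA on the other strand), was found in 2 of the 10 genes, Prdx1 and Sod1, and in 12.4% of all windows. The E-box CACGTG, which reads the same on both strands, was found in none of the 10 and in 7.15% of all windows. The promoters of Gpx3, the gene that passed the test below, and of Txnip, the gene with the FoxO core, are shown 5′ to 3′ on the gene's strand, with the core in capitals where there is one.
Gpx3, chr11:54902604-54902903, plus strand: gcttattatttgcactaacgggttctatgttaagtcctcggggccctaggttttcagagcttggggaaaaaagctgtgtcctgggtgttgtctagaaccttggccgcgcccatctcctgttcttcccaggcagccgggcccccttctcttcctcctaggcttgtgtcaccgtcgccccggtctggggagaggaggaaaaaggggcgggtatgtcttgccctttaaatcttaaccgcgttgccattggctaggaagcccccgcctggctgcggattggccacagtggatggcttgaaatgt
Txnip, chr3:96557707-96558006, plus strand: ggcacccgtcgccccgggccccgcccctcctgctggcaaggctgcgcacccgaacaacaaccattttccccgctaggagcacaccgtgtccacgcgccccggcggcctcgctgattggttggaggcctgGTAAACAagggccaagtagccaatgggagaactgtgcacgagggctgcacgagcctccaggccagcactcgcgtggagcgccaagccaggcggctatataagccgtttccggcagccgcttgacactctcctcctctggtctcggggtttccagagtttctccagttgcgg
The Gpx3 window held none of the 3 motifs, which says only that these letters are not in these 300 bases.

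Between 1.66e7 and 2.86e7 reads per library fell in genes, as worked out from the steps between low FPKM values. HSC markers were present in every library: all 9 were in the table and their summed level was 344 to 427 FPKM in libraries labelled aged Thbs1 knockout, 549 to 589 FPKM in aged controls and 397 to 439 FPKM in young controls. The sums of aged controls thus lay above those of both other groups without overlap. Of the 9, 3 were called higher with age, where 4.42% of all tested genes were called. For the knockout label over aged controls 1 was called lower, where 1.55% were called. Thbs1 itself was not lower in the libraries that carry its knockout label, which had 10.4 ± 7.84 FPKM, against 2.90 ± 3.84 FPKM in aged controls and 4.24 ± 5.28 FPKM in young controls (SD, n = 5 each), so these are called libraries labelled aged Thbs1 knockout throughout. Much of this spread went with sex: Thbs1 averaged 10.2 FPKM in 8 female and 0.93 FPKM in 7 male libraries. It was not lower within either sex. Libraries with the label averaged 15.9 FPKM in females, against 6.83 FPKM in aged controls, and 2.11 FPKM in males, against 0.277 FPKM. Libraries 2 and 5 of that label stood apart: their FPKM summed to 628740 and 594341 over all genes, against 339153 to 479849 in the other 13, genes of at most 1500 nucleotides took 11.9% to 12.9% of their reads, against 5.87% to 8.71%, and rRNA-like genes took 0.682% to 2.16%, against 0.157% to 0.370%. Titles and library names in the table's header, which go together, disagree with GEO's sample descriptions for 10 of the 15 columns. Groups were taken from the titles. Under the other pairing 0 of 11345 genes were called with age and 0 for the knockout label over aged controls, so no call in those comparisons below held under it, and the value each called gene took is given beside it.

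Of the 10 genes, 1 passed the test with age: Gpx3 rose in aged controls over young controls, by 2.37 on the log2(FPKM + 1) scale, and the other 9 did not pass. In this comparison 4.42% of the 11345 tested genes were called, with 3.18% higher and 1.23% lower in aged controls. The test was limma on log2(FPKM + 1) with all 15 libraries in 1 fit, and a gene was called at a Benjamini-Hochberg adjusted p under 0.05. The libraries labelled aged Thbs1 knockout differed from aged controls in none of the 10 genes by limma, nor by voom on recovered reads, and 1, Foxo3, had an unadjusted p under 0.05. In that comparison 1.55% of tested genes were called, with 0.361% higher and 1.19% lower, and 2.34% had no overlap between the groups, against 0 of the 10. Against young controls they again differed in Gpx3 alone, where 1.63% of tested genes were called, with 1.01% higher and 0.617% lower. The first 2 comparisons share the aged controls, and the first and the third share the young controls, so they are not independent of each other. The median log2 change of the 10 genes was 0.21 with age, 0.13 for the knockout label over aged controls and 0.27 for it over young controls, beside -0.02, -0.03 and -0.06 over all tested genes.

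**Figure D1:**
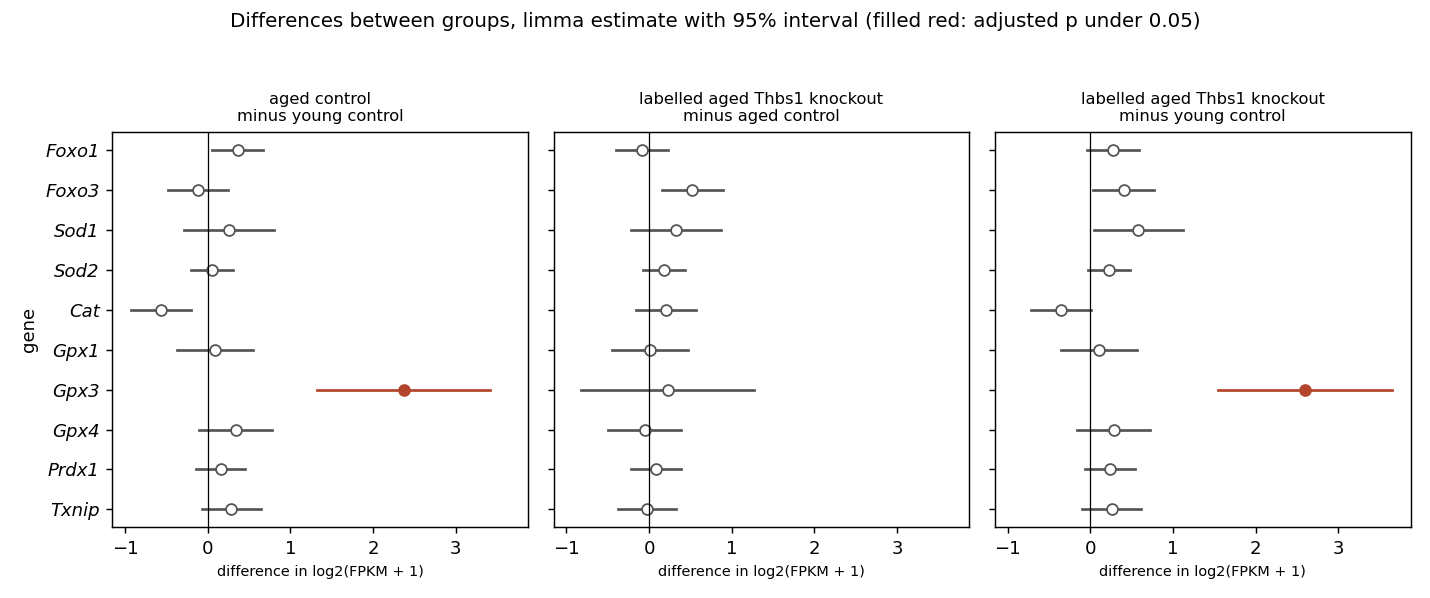
Differences in log2(FPKM + 1) between groups for the 10 genes (limma estimate with its 95% interval, n = 5 libraries a group; filled red marks an adjusted p under 0.05). Only Gpx3 is marked, at 2.37 in aged over young controls and at 2.59 in libraries labelled aged Thbs1 knockout over young controls, and its interval against aged controls runs from -0.82 to 1.27.

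On the FPKM scale, which is per transcript length, the level of Gpx1 was the highest of the 10, with a mean of 1201 FPKM over the 15 libraries, and it lay above Txnip (449 FPKM) in every library with no overlap. Txnip lay above Gpx4 (236 FPKM) in all 15 libraries, although their ranges overlapped. Gpx4, Sod1 (213 FPKM) and Prdx1 (212 FPKM) had overlapping ranges, and Sod1 exceeded Prdx1 in 6 of 15 libraries, so their order was within the spread. Prdx1 was above Cat (65.0 FPKM) in all 15 with no overlap. Cat exceeded Sod2 (40.9 FPKM) in 13 of 15 libraries, Sod2 exceeded Gpx3 (22.4 FPKM) in 13, Gpx3 exceeded Foxo3 (5.93 FPKM) in 10, and Foxo3 exceeded Foxo1 (4.62 FPKM) in 11, all with overlapping ranges. The enzymes also differed in how steady they were: Sod2 varied with a coefficient of variation of 13.7% over all libraries, at the 8.04th percentile of tested genes, and Gpx3 with 120%, at the 99.8th percentile.

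**Figure D2:**
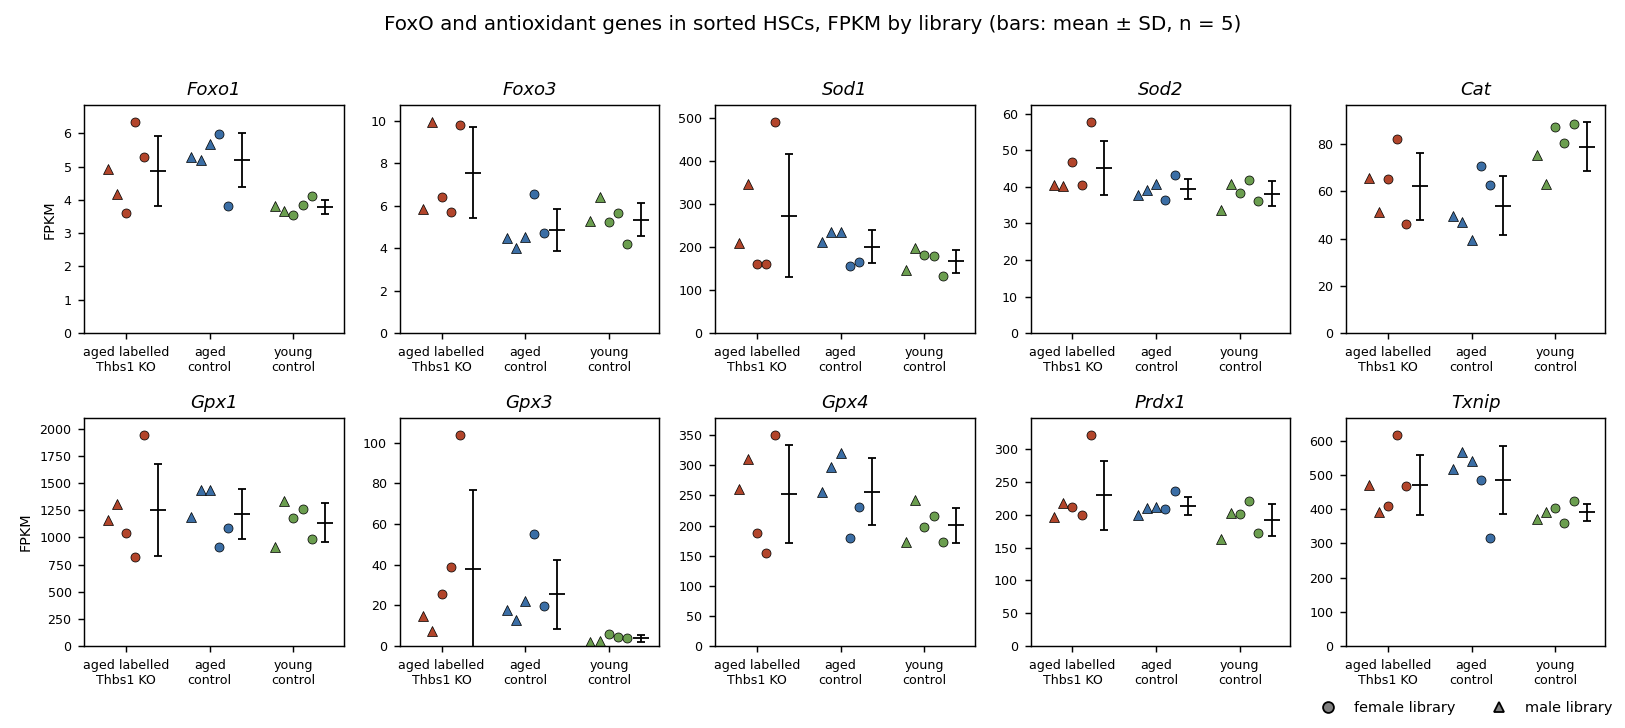
FPKM of the 10 genes in each library, by group (circles female, triangles male; bars give the mean ± SD of 5 libraries; each panel has its own linear axis from 0, and the lower arm of the first Gpx3 bar ends at the axis because the SD exceeds the mean). Gpx3 is at 1.96 to 5.93 FPKM in young controls and at 7.56 FPKM or above in all 10 aged libraries, and the groups overlap in the other 9 genes.

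The 2 FoxO genes had the lowest mean levels of the 10 over all 15 libraries, although in young controls Gpx3 had a lower mean, 3.73 FPKM, than either, and neither passed the test in any comparison of groups. Foxo1 (ENSMUSG00000044167, chr3:52268336-52353221, plus strand) had 4.94, 4.18, 3.60, 6.33 and 5.29 FPKM in the 5 libraries labelled aged Thbs1 knockout, against 5.30, 5.20, 5.68, 5.97 and 3.83 FPKM in aged controls and 3.81, 3.66, 3.56, 3.84 and 4.11 FPKM in young controls. Aged controls lay above all young controls in 4 of 5 libraries, the exception being aged control 5, and the labelled knockout libraries did so in 4 of 5. The change with age was 0.36 on the log2 scale (SE 0.15, 95% interval 0.05 to 0.67, limma adjusted p = 0.191). Foxo3 (ENSMUSG00000048756, chr10:42181841-42276755, minus strand) had 5.83, 9.94, 6.44, 5.73 and 9.83 FPKM in the 5 libraries labelled aged Thbs1 knockout, against 4.50, 4.01, 4.53, 6.58 and 4.74 FPKM in aged controls and 5.28, 6.40, 5.25, 5.64 and 4.19 FPKM in young controls. The 2 highest of the 15 values were libraries 2 and 5 labelled aged Thbs1 knockout, which are also the 2 with the high FPKM sum. The other 3 of that label fell within the range of the aged controls only because of aged control 4, at 6.58 FPKM. All 5 lay above the remaining aged controls, the highest of which was at 4.74 FPKM. Foxo3 differed by 0.52 (SE 0.17, 95% interval 0.16 to 0.89, limma adjusted p = 0.174) between libraries labelled aged Thbs1 knockout and aged controls, and by 0.27 (adjusted p = 0.544) without libraries 2 and 5. What the FPKM sum contributes to this difference was not tested. With age Foxo3 differed by -0.12 (95% interval -0.49 to 0.25, adjusted p = 0.708). In bulk samples, fewer cells of a type and less RNA per cell cannot be told apart, for these and for all other genes.

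Among 21 genes that code for FoxO factors and the kinases, phosphatases and deacetylases that control them, 19 were tested. With age 1 rose and none fell, beside a median of -0.29 for the list and -0.02 for all tested genes. In the other 2 comparisons none was called by limma or voom. An unadjusted p under 0.05, which many tested genes had, was found for 6 genes with age. It was found for 3 for the knockout label over aged controls and 6 for it over young controls. The gene called with age was Sgk1, a kinase activated by growth factor signaling that, like AKT, phosphorylates FoxO factors: it had 4.38 ± 1.38 FPKM in aged controls, against 1.28 ± 0.291 FPKM in young controls (SD, n = 5 each), a log2 change of 1.21 (SE 0.22, limma adjusted p = 0.00242), with no overlap. It was at -0.64 (adjusted p = 0.894) under the pairing of GEO's sample descriptions. Without labelled libraries 2 and 5, Sgk1 was also called for the knockout label over aged controls, at -0.99 (adjusted p = 0.0210), against -0.66 (adjusted p = 0.171) with them. Of 25 genes listed as FoxO targets, 22 were tested, 2 rose with age and none fell. Beside the counts of these 2 lists, 4.42% of all tested genes were called with age. Cited2, a transcriptional coregulator needed for HSC maintenance in mice, had 102 ± 12.4 FPKM in aged controls, against 62.1 ± 4.45 FPKM in young controls (0.70, SE 0.12, adjusted p = 0.00172). S1pr1, the receptor through which cells follow sphingosine-1-phosphate out of tissues, had 21.3 ± 4.43 FPKM in aged controls, against 12.6 ± 1.29 FPKM in young controls (0.69, SE 0.16, adjusted p = 0.0159). The S1pr1 call was lost without aged control 3 (0.64, adjusted p = 0.0562) and with libraries scaled to a common FPKM sum (0.57, adjusted p = 0.327). Under the pairing of GEO's sample descriptions Cited2 was at -0.32 (adjusted p = 0.957) and S1pr1 at -0.41 (adjusted p = 0.921) with age.

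The same 2 target genes were the only called members of that list for the knockout label over aged controls, in the other direction, and Sod2 and Cat, which the list also holds, were not called. Of all tested genes 1.55% were called there. Cited2 had 69.2 ± 10.3 FPKM in libraries labelled aged Thbs1 knockout, against 102 ± 12.4 FPKM in aged controls, a change of -0.56 (SE 0.12, limma adjusted p = 0.0261). S1pr1 had 12.7 ± 2.41 FPKM there, against 21.3 ± 4.43 FPKM in aged controls, a change of -0.69 (SE 0.16, adjusted p = 0.0315). Both calls were sensitive to single libraries. For Cited2 the adjusted p was 0.0639, 0.0812 and 0.0912 without aged control 1, 2 or 3, and 0.0689 and 0.0572 without library 3 or 4 labelled aged Thbs1 knockout. For S1pr1 it was 0.0844, 0.0826, 0.101 and 0.0723 without aged control 1, 2, 3 or 4, 0.0831 and 0.0542 without labelled library 2 or 5, and 0.137 without both of these. In a fit of only the 2 aged groups it was 0.150 for Cited2 and 0.151 for S1pr1. The S1pr1 call was also lost with libraries scaled to a common FPKM sum (-0.85, adjusted p = 0.122) and, narrowly, with no filter on low values (adjusted p = 0.0505). Cited2 was at 0.18 (adjusted p = 0.945) and S1pr1 at 0.27 (adjusted p = 0.913) under the pairing of GEO's sample descriptions. Because the aged controls enter both comparisons, a rise with age and a fall with the knockout label in the same genes are not independent. Against young controls none of the 22 targets was called by limma or voom, with 2 at an unadjusted p under 0.05, and Cited2 differed by 0.14 and S1pr1 by -0.01. With sex as a covariate 1 target, Ccng2, was called over young controls (-0.60, adjusted p = 0.0469), against an adjusted p of 0.107 without it. Skp2, a ubiquitin ligase subunit, belongs to the list of FoxO factors and their control and not to the targets. It was called over young controls without labelled library 4 (-0.85, adjusted p = 0.0373), against -0.68 (adjusted p = 0.122) with it. Both were named after their values were seen. The median of the 22 was -0.04 with age, -0.04 for the knockout label over aged controls and -0.05 over young controls.

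Of the superoxide dismutases Sod1 and Sod2 and the catalase Cat, none passed the test in any comparison of groups. Sod1, the cytosolic copper and zinc superoxide dismutase (ENSMUSG00000022982, chr16:90220754-90226329, plus strand), had 209, 346, 159.8, 161 and 489.6 FPKM in the 5 libraries labelled aged Thbs1 knockout, against 211, 236, 235, 155 and 164 FPKM in aged controls and 146, 197, 180.3, 178 and 131 FPKM in young controls. Labelled libraries 2 and 5 were the highest of all 15, and the other 3 of that label lay within the range of aged controls. The difference between libraries labelled aged Thbs1 knockout and young controls was 0.58 (SE 0.26, 95% interval 0.04 to 1.12, limma adjusted p = 0.212), and without libraries 2 and 5 it was 0.09 (adjusted p = 0.898). Against aged controls it was 0.32 with all libraries and -0.17 without those 2, so the direction rests on them. Sod1 overlaps Scaf4 on the other strand, whose mean level was 11.3 FPKM, and whether reads were counted by strand is not given in the sources used here.

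Sod2, the manganese superoxide dismutase of mitochondria (ENSMUSG00000006818, chr17:13006846-13040063, plus strand), had 40.6, 40.2, 46.8, 40.6 and 57.7 FPKM in the 5 libraries labelled aged Thbs1 knockout, against 37.7, 39.1, 40.9, 36.4 and 43.4 FPKM in aged controls and 33.6, 40.9, 38.3, 42.0 and 36.1 FPKM in young controls. All 3 groups overlapped, and labelled library 5 was the highest value. Sod2 differed by 0.05 with age (95% interval -0.20 to 0.30) and by 0.18 for the knockout label over aged controls (95% interval -0.07 to 0.43).

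Cat, the catalase of peroxisomes (ENSMUSG00000027187, chr2:103453849-103485160, minus strand), had 65.6, 51.4, 65.3, 82.3 and 46.1 FPKM in the 5 libraries labelled aged Thbs1 knockout, against 49.5, 47.1, 39.6, 70.7 and 62.6 FPKM in aged controls and 75.3, 63.2, 87.2, 80.7 and 88.6 FPKM in young controls. Of the aged controls, only library 4 exceeded the lowest young control, library 2, and the other 4 lay below all young controls. The change with age was -0.56 (SE 0.17, 95% interval -0.93 to -0.20, unadjusted p = 0.00441, limma adjusted p = 0.0747). It did not pass the threshold in the full fit, and it passed without aged control 4 (adjusted p = 0.0336), aged control 5 (0.0444) or labelled library 5 (0.0452), and in a fit of only the 2 control groups (0.0351). Without labelled libraries 2 and 5 it also passed (0.0274), where 9.16% of tested genes were called. Of the 15 fits with 1 library left out, only the 3 named above passed. Over these 15 the change ran from -0.67 to -0.46 and the adjusted p from 0.0336 to 0.224. Cat was not called with sex or replicate number in the model. Nor was it called with no filter on low values or with libraries scaled to a common FPKM sum. Within the sexes the change with age was -0.36 in females and -0.60 in males. The change in the full fit turned to 0.44 under the pairing of GEO's sample descriptions. Libraries labelled aged Thbs1 knockout differed from young controls by -0.36 (95% interval -0.72 to 0.0036, adjusted p = 0.241) and from aged controls by 0.20 (95% interval -0.16 to 0.57). Cat lies 14.6 Mb from Thbs1 on chromosome 2. Of the list of 5 superoxide dismutases and catalase, 4 were tested, 3 of them the genes above, and none was called in any comparison by limma or voom, with 1 at an unadjusted p under 0.05 in each comparison with young controls and 0 between the aged groups.

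The glutathione peroxidases held the only gene of the 10 that passed the test. Gpx3, the secreted enzyme of plasma (ENSMUSG00000018339, chr11:54902453-54910377, plus strand), had 14.8, 7.56, 25.6, 38.8 and 104 FPKM in the 5 libraries labelled aged Thbs1 knockout, against 17.6, 12.8, 22.4, 55.2 and 19.4 FPKM in aged controls and 1.96, 2.37, 5.93, 4.43 and 3.96 FPKM in young controls. All 10 aged libraries lay above all 5 young controls, and 7.16% of tested genes had no overlap between aged and young controls in either direction and 4.5% between labelled knockout libraries and young controls. Aged controls averaged 25.5 ± 17.0 FPKM and young controls 3.73 ± 1.61 FPKM (SD, n = 5 each), a ratio of means of 6.83 and a log2 change of 2.37 (SE 0.50, 95% interval 1.32 to 3.42, limma adjusted p = 0.00796). Libraries labelled aged Thbs1 knockout averaged 38.1 ± 38.5 FPKM, 10.2 times the mean of young controls, with a log2 change of 2.59 (SE 0.50, 95% interval 1.55 to 3.64, adjusted p = 0.0102). Between the 2 aged groups the difference was 0.22 with an interval from -0.82 to 1.27 (adjusted p = 0.890), and 1 of 5 labelled libraries exceeded the highest aged control. It turned to -0.26 without labelled library 5, the highest of all libraries.

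The Gpx3 values rested on 66 to 4600 recovered reads per library. Both Gpx3 calls held with any single library left out, with log2 changes of 2.05 to 2.56 with age (adjusted p 0.0012 to 0.0306) and of 2.11 to 3.01 for the knockout label over young controls (adjusted p 0.00223 to 0.0364). Without libraries 2 and 5 labelled aged Thbs1 knockout the change of the label over young controls was 2.50 (adjusted p = 0.00474). Under the pairing of columns in GEO's sample descriptions neither held: the difference of aged over young controls was -0.25 (adjusted p = 0.997) and that of the knockout label over young controls 2.21 (adjusted p = 0.147). Under that pairing 0 genes of 11345 were called with age and 15 (0.132%) for the label over young controls, against 501 and 185 under the titles. That pairing puts 5 male libraries in the young group and 5 female libraries in the knockout group.

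Gpx3 also differed between the sexes. Female libraries had 32.1 ± 34.1 FPKM (SD, n = 8) and male libraries 11.4 ± 7.72 FPKM (SD, n = 7), a log2 difference of 1.27 with group as a covariate (SE 0.30, 95% interval 0.64 to 1.89, limma adjusted p = 0.0155), where 12.9% of tested genes were called, 9.67% higher and 3.27% lower in females. Without the group term the difference was 1.03 (adjusted p = 0.299). None of the other 9 genes was called for sex in that fit. Without labelled library 5, Sod1 (-0.42, adjusted p = 0.0311), Cat (0.40, 0.00909) and Gpx4 (-0.42, 0.024) were called as well. In each group the male libraries carry the lower numbers, so sex cannot be told apart from anything else that follows those numbers. The summed level of 7 genes listed as endothelial and stromal markers was 6.53 to 9.72 FPKM in female libraries and 4.21 to 5.70 FPKM in male libraries, with no overlap. It was the only marker list that separated the sexes. The sums of HSC, erythroid, megakaryocyte, myeloid, B cell, T and NK cell, macrophage and mast cell markers all overlapped between them. Of the 7, Emcn, Kdr and the collagen gene Col1a2 were above 0 in every library and made up most of the sum, with 1.29 to 5.83, 0.56 to 2.52 and 0.39 to 3.32 FPKM. Which cells these 3 transcripts came from cannot be told in bulk samples. The other 4, Cdh5, Col1a1, Lepr and Cxcl12, which mark endothelium, bone-forming and stromal cells, were never above 0.32 FPKM, and each was at 0 in 1 to 5 libraries. Between groups that sum was 4.95 to 9.72 FPKM in libraries labelled aged Thbs1 knockout, 4.21 to 9.20 FPKM in aged controls and 4.72 to 8.99 FPKM in young controls, and its part in the Gpx3 values was not tested.

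The rise with age was present in both sexes. Aged controls averaged 37.3 FPKM in 2 female libraries, against 4.77 FPKM in 3 of young controls, a log2 difference of 2.57. In males they averaged 17.6 FPKM in 3 libraries, against 2.17 FPKM in 2, a difference of 2.52. Between libraries labelled aged Thbs1 knockout and aged controls the difference was 0.50 in females and -0.65 in males. The test of the difference between those, the interaction, gave 1.15 (95% interval -0.35 to 2.64, limma adjusted p = 0.999), and no gene was called for it, with 377 of 11345 (3.32%) at an unadjusted p under 0.05.

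Over the 15 libraries, 3 genes followed Gpx3 most closely on the log2(FPKM + 1) scale among 9825 protein-coding genes compared. Serpinb6a, an intracellular serine protease inhibitor, had a Pearson r of 0.96. Xdh, the xanthine dehydrogenase and oxidase that itself forms superoxide and hydrogen peroxide, had 0.92, and Sult1a1, a sulfotransferase of phenols, had 0.91. All libraries share the age groups and the sexes, and these correlations are descriptions. Xdh had 3.91, 5.52, 4.65, 10.1 and 20.3 FPKM in the 5 libraries labelled aged Thbs1 knockout, against 3.85, 4.38, 4.04, 10.2 and 5.89 FPKM in aged controls and 2.19, 1.89, 2.69, 2.29 and 1.71 FPKM in young controls. Sult1a1 had 74.9, 96.5, 91.3, 174 and 282 FPKM in the 5 libraries labelled aged Thbs1 knockout, against 185, 178, 157, 287 and 156 FPKM in aged controls and 34.5, 43.8, 68.9, 60.3 and 51.2 FPKM in young controls. In both genes library 5 labelled aged Thbs1 knockout and aged control 4 held the 2 highest values, as they did for Gpx3.

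**Figure D3:**
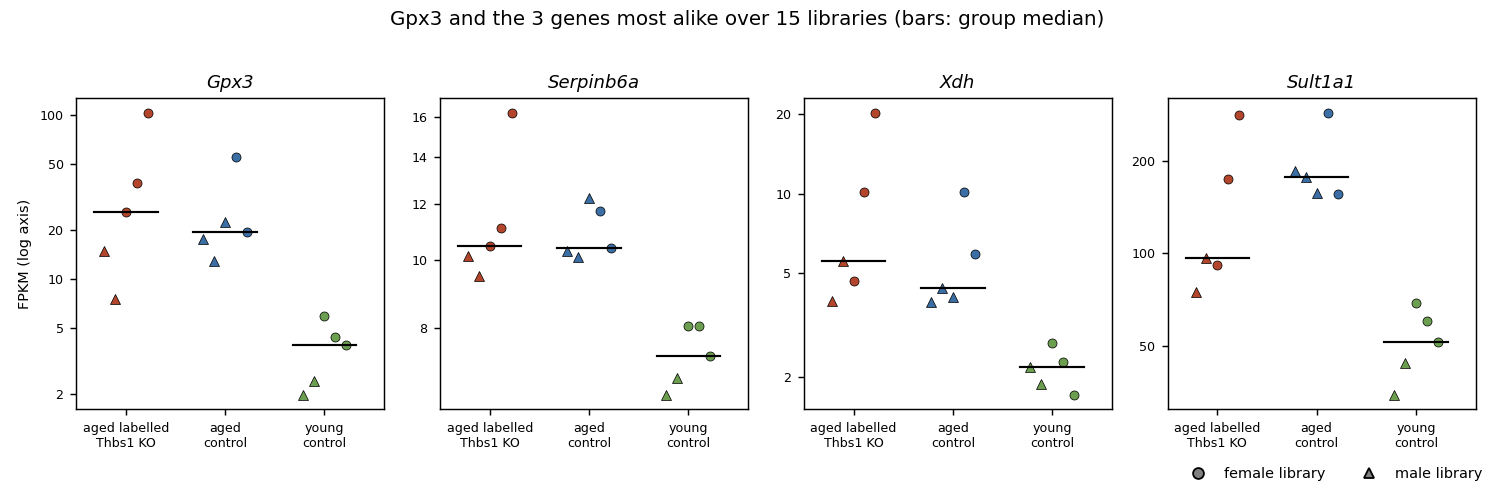
FPKM (log axis) of Gpx3 and of the 3 genes with the highest Pearson correlation to it over 15 libraries, by group (circles female, triangles male, bars the group median of 5 libraries). In all 4 genes the young controls lie lowest, and in each the highest of the labelled knockout libraries is library 5, with 104 FPKM for Gpx3 and 16.2 FPKM for Serpinb6a.

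The abundant glutathione peroxidases did not follow Gpx3. Gpx1, the main cytosolic enzyme (ENSMUSG00000063856, chr9:108338903-108340343, plus strand), had 1163, 1310.0, 1042, 820.3 and 1941 FPKM in the 5 libraries labelled aged Thbs1 knockout, against 1190.2, 1439.8, 1437, 915 and 1085 FPKM in aged controls and 914, 1334, 1179, 1264 and 985 FPKM in young controls. Gpx4, which reduces lipid hydroperoxides and protects from ferroptosis (ENSMUSG00000075706, chr10:80047166-80056439, plus strand), had 260.2, 311, 187, 155 and 350.1 FPKM in the 5 libraries labelled aged Thbs1 knockout, against 255, 297, 321, 179 and 230.5 FPKM in aged controls and 172, 242, 198, 216 and 173 FPKM in young controls. The groups overlapped in both genes, and labelled library 5 was the highest value of each. Gpx1 differed by 0.09 with age (95% interval -0.37 to 0.55) and by 0.01 for the knockout label over aged controls (95% interval -0.45 to 0.47). Gpx4 differed by 0.34 with age (95% interval -0.11 to 0.78, limma adjusted p = 0.367) and by -0.06 for the knockout label over aged controls. A pseudogene of Gpx4 is in the same table, so reads may be shared between them.

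Gpx8, a glutathione peroxidase of the endoplasmic reticulum, rose in the same comparisons as Gpx3. It had 11.1 ± 2.86 FPKM in aged controls, against 3.28 ± 1.21 FPKM in young controls (1.51, SE 0.26, limma adjusted p = 0.00125), and 10.7 ± 4.52 FPKM in libraries labelled aged Thbs1 knockout (1.42, SE 0.26, adjusted p = 0.00637 against young controls). In neither comparison did the groups overlap. Under the pairing of GEO's sample descriptions Gpx8 was called in neither, at -0.09 (adjusted p = 0.997) with age and 0.41 (adjusted p = 0.697) for the knockout label over young controls. Of the 19 genes listed as glutathione peroxidases and the glutathione cycle, 14 were tested. With age 2 rose, Gpx3 and Gpx8, and 12 were not called, the same count held for the knockout label over young controls, and none was called between the aged groups by limma or voom, with 0 at an unadjusted p under 0.05. Of all tested genes 4.42% were called with age and 1.63% for the knockout label over young controls. The median of the 14 was 0.10 with age, against -0.02 for all tested genes.

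As a share of the summed FPKM of Gpx1, Gpx3, Gpx4, Gpx7 and Gpx8, Gpx3 made up 2.31 ± 1.67% in libraries labelled aged Thbs1 knockout, 1.87 ± 1.63% in aged controls and 0.277 ± 0.114% in young controls (SD, n = 5 each). Gpx1 made up 80.1 ± 1.13%, 79.9 ± 0.914% and 83.9 ± 0.433% in the same groups, and Gpx4 16.2 ± 2.00%, 16.8 ± 0.907% and 14.8 ± 0.595%. Gpx1 transcripts were thus by far the largest share in every group, and Gpx3 and Gpx8, which passed the test, held small ones. These shares are given without a test.

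Prdx1 and Txnip, which act on the thioredoxin cycle from opposite sides, did not pass the test. Prdx1, a cytosolic peroxiredoxin (ENSMUSG00000028691, chr4:116685544-116700822, plus strand), had 197, 218, 212, 200.2 and 322 FPKM in the 5 libraries labelled aged Thbs1 knockout, against 199.9, 210.0, 211, 209 and 236 FPKM in aged controls and 163, 203, 202, 221 and 172 FPKM in young controls. Labelled library 5 stood alone at the top, and the other 14 libraries lay between 163 and 236 FPKM. Prdx1 differed by 0.16 with age (95% interval -0.15 to 0.46) and by 0.08 for the knockout label over aged controls (95% interval -0.22 to 0.38). Txnip, which binds thioredoxin and also limits glucose uptake (ENSMUSG00000038393, chr3:96557957-96561883, plus strand), had 472, 393, 411, 617 and 469 FPKM in the 5 libraries labelled aged Thbs1 knockout, against 517, 567, 540.3, 485 and 315 FPKM in aged controls and 371, 393, 403, 361 and 425 FPKM in young controls. Of the aged controls, 4 of 5 lay above all young controls, and aged control 5 was the lowest of all libraries. Txnip differed by 0.28 with age (SE 0.17, 95% interval -0.07 to 0.64, limma adjusted p = 0.342) and by -0.03 for the knockout label over aged controls. Aged control 5 also had the highest summed level of 7 megakaryocyte and platelet markers, 1990 FPKM against 177 to 807 FPKM in the other libraries. Most of its sum was Pf4, at 1579 FPKM, and none of the other markers of that list exceeded 192 FPKM in any library. With that library and labelled libraries 2 and 5 left out, a choice made after seeing the data, Txnip (0.43, adjusted p = 0.0287), Foxo1 (0.45, adjusted p = 0.0325) and Cat (-0.62, adjusted p = 0.0123) were called with age beside Gpx3, where 19.6% of tested genes were called. Txnip overlaps the antisense gene Gm15441, whose mean level was 2.72 FPKM.

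Of 20 genes listed as peroxiredoxins and the thioredoxin cycle, 19 were tested and none was called in any of the 3 comparisons by limma or voom. At an unadjusted p under 0.05, which many tested genes had, there were 2 with age, 3 for the knockout label over aged controls and 4 for it over young controls. Their median log2 change was 0.04 with age, -0.03 for the knockout label over aged controls and 0.04 over young controls. Without labelled libraries 2 and 5, 1 gene of the list was called with age, Srxn1 (0.49, adjusted p = 0.00907), the sulfiredoxin that repairs overoxidized peroxiredoxins, and 1 for the knockout label over aged controls, Txnrd3, a thioredoxin reductase (0.50, adjusted p = 0.0450), both named after their values were seen.

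**Figure D4:**
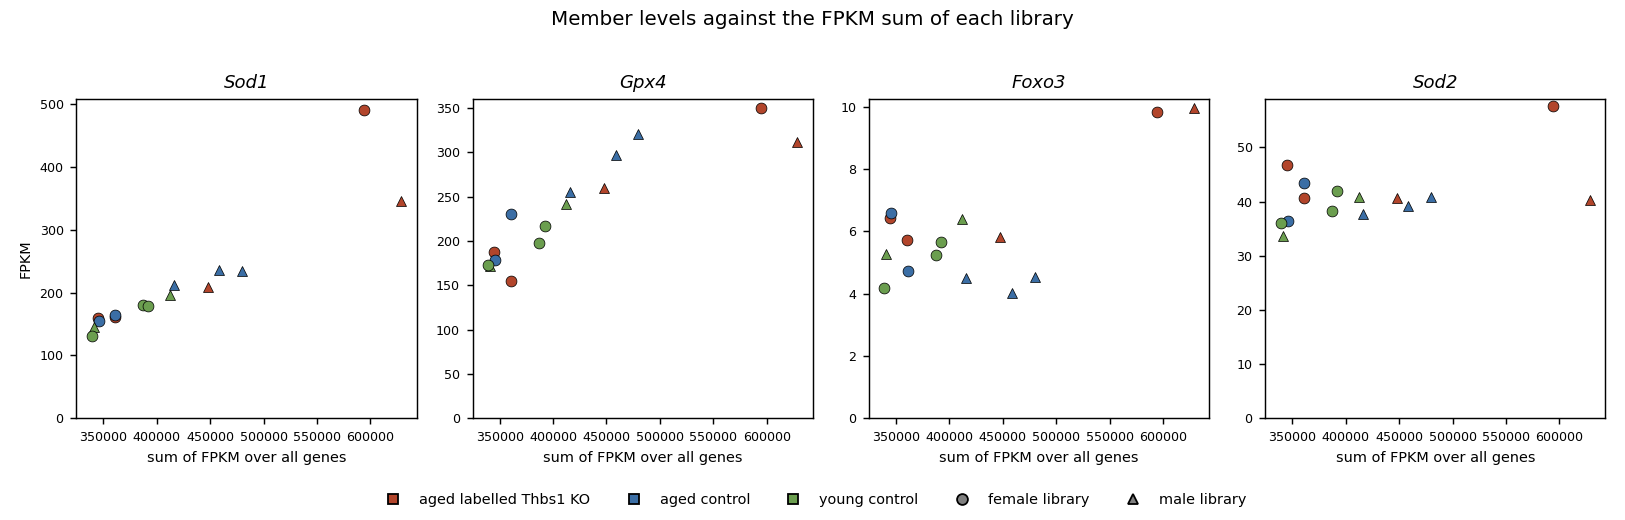
FPKM of Sod1, Gpx4, Foxo3 and Sod2 in each library against the summed FPKM of all genes in that library, colored by group (circles female, triangles male). Libraries 2 and 5 labelled aged Thbs1 knockout lie apart at 628740 and 594341 and hold the 2 highest values of Sod1 and of Foxo3, at 346 and 490 FPKM and at 9.94 and 9.83 FPKM.

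The plot of levels against the FPKM sum places these genes beside the composition of each library. In it Sod1 and Gpx4 lie higher where the FPKM sum is higher, also among the 13 other libraries, and Sod2 is nearly level except in labelled library 5, a description of 15 points without a test. Neutrophil and myeloid markers, 7 of 8 matched, summed to 44.6 FPKM in labelled library 5, against 5.24 to 20.9 FPKM in the other 14. Most of the sum in labelled library 5 was S100a8 and S100a9, which reached 19.3 and 20.1 FPKM. Mpo, Elane, Ctsg, Ltf and Ngp never exceeded 2.61 FPKM in any library. The part of these markers in the high values of Gpx1, Prdx1, Sod1 and Gpx3 in labelled library 5 was not tested. With each library scaled to a common FPKM sum (TPM), chosen as an alternative after seeing the data, the median of all tested genes moved by more than 0.1, to -0.13 with age and to -0.31 for the knockout label over young controls. Relative to that median Gpx3 changed by 2.41 and 2.66 in those comparisons.

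Of 23 genes listed as NRF2 and its targets, 22 were tested, and 1 was called, in both comparisons with young controls. Beside this list and the next, 4.42% of all tested genes were called with age and 1.63% for the knockout label over young controls. Hmox1, the heme oxygenase that breaks heme into biliverdin, iron and carbon monoxide, had 2.88 ± 1.19 FPKM in libraries labelled aged Thbs1 knockout, 3.90 ± 1.33 FPKM in aged controls and 8.06 ± 1.38 FPKM in young controls (SD, n = 5 each). It fell by 0.91 with age (SE 0.22, limma adjusted p = 0.0234), where the groups did not overlap, and the adjusted p was 0.0649, 0.0577 and 0.0746 without young control 1, 3 or 5 and 0.0751 and 0.0571 without aged control 2 or 4. For the knockout label over young controls it fell by 1.27 (SE 0.22, adjusted p = 0.00513). Neither Hmox1 call held under the pairing of GEO's sample descriptions, with 0.11 (adjusted p = 0.997) with age and -0.87 (adjusted p = 0.233) over young controls. The median of the list was 0.06 with age and -0.09 for the knockout label over young controls. Of 18 genes of selenoproteins other than the glutathione peroxidases and of the machinery that inserts selenocysteine, all 18 were tested and 1 rose with age. Selenom, a selenoprotein of the endoplasmic reticulum, had 59.7 ± 17.5 FPKM in aged controls, against 24.8 ± 2.98 FPKM in young controls (1.19, SE 0.27, adjusted p = 0.0127), with no overlap, and its difference for the knockout label over young controls was 1.05 (adjusted p = 0.0528). That difference was 0.61 (adjusted p = 0.327) without labelled libraries 2 and 5. It passed the threshold without aged control 5 (adjusted p = 0.0410), without labelled library 3 (1.25, adjusted p = 0.0122) or 4 (1.19, adjusted p = 0.0283), with sex as a covariate (adjusted p = 0.0266), under quantile normalization (adjusted p = 0.0269) and with libraries scaled to a common FPKM sum (0.76, adjusted p = 0.0412). Under the pairing of GEO's sample descriptions Selenom was at -0.41 (adjusted p = 0.983) with age and -0.07 (adjusted p = 0.950) for the knockout label over young controls.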

How the data were processed

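Bulk RNA was measured in sorted mouse HSCs, in 15 libraries of 3 groups. Per the submitters' processing notes the tools were FastQC 0.11.5, STAR and edgeR on GRCm38 (mm10), and neither their settings nor strand handling is given in the sources used here. The values are FPKM as the authors deposited them, rounded to 2 decimals in a single table. Columns were assigned to groups by title, and no column was left unmapped.

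Values were analysed as log2(FPKM + 1), a scale that understates changes of low genes. Genes that averaged at least 1 FPKM were tested in limma 3.58.1 (trend, R 4.3.3), two-sided, with all 15 libraries in 1 fit, no covariate and Benjamini-Hochberg adjustment over 11345 genes, and were called at an adjusted p under 0.05. Sex was tested with group as a covariate, and its interaction with the knockout label in a fit of group and sex. Every adjusted p is from limma. Reads were recovered from the steps between low FPKM values of genes of at most 250 nucleotides, and 97.4% to 98.6% of the values of other genes of up to 500 nucleotides came out whole within 0.1 reads. voom was run on these reads. Gene positions and transcripts were from GENCODE M21 and promoters from RefSeq. The fits were tested on simulated data.

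All 10 genes were named in every comparison. Of each of 7 further gene lists, called genes among the 4 with the smallest p were named, and for Gpx3 the 3 protein-coding genes with the highest correlation. The members and lists were chosen with earlier results of these data known. Alternatives were another pseudocount, other filters, quantile, median-of-ratios and TPM scaling, sex or replicate number in the model, fits of 2 groups, libraries left out and the other column pairing.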

Additional observations from a re-analysis of the deposited data

Results flagged for a closer look

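Each of the 10 genes was searched in each of the 3 groups of 5 libraries for a library whose gap to its nearest neighbour is more than 0.71 of the group's range. Of 30 such groups 3 had one. The cut would mark about 1 in 20 groups of independent, normally distributed values. The 30 groups share the same libraries, and 2 of the 3 marked values were from aged control 4. The count therefore cannot be set against that rate. Prdx1 in library 5 labelled aged Thbs1 knockout was at 321.69 FPKM, above the other 4 of its group. Gpx3 in aged control 4 was at 55.21 FPKM, and Foxo3 in the same library at 6.58 FPKM, each above the other 4 aged controls. Labelled library 5 is 1 of the 2 with the high FPKM sum, and aged control 4 is female.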

How the results depend on the processing

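Gpx3 stayed called with age and for the knockout label over young controls under every alternative tried except the column pairing of GEO's sample descriptions. That pairing gave 0 called genes with age, 0 for the label over aged controls and 15 for it over young controls, and 0 called members. With age it turned Foxo1 to -0.15, Foxo3 to 0.24, Sod1 to -0.026, Cat to 0.44, Gpx1 to -0.085, Gpx3 to -0.25, Gpx4 to -0.15 and Txnip to -0.20. For the label over aged controls it turned Foxo1 to 0.21, Cat to -0.19, Gpx1 to -0.088 and Txnip to 0.13, and over young controls Sod1 to -0.012, Cat to 0.26, Gpx1 to -0.17, Gpx4 to -0.25 and Txnip to -0.069. In this and the following lists of turned directions no value was called, with 2 exceptions under quantile normalization: Gpx1 for the label over young controls (-0.50, adjusted p = 0.0255) and for sex (0.24, adjusted p = 0.0396).

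TPM scaling gave 313 called genes with age and turned Sod2 to -0.079 and Gpx1 to -0.041 there, Gpx1 to -0.16 and Prdx1 to -0.089 for the label over aged controls, and Sod2 to -0.068, Gpx1 to -0.20, Gpx4 to -0.022, Prdx1 to -0.064 and Txnip to -0.047 over young controls, where medians of all genes were -0.13, -0.16 and -0.31. Quantile normalization turned Gpx1 to -0.26 and Prdx1 to -0.043 with age, Gpx1 to -0.24 over aged controls, Txnip to -0.11 over young controls, and for sex Foxo3 to -0.065 and Txnip to 0.052. It called 2 members over young controls and 3 for sex, Gpx3, Gpx1 and Prdx1 (0.27, adjusted p = 0.0167). Median-of-ratios scaling turned Txnip to 0.012 over aged controls.

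Without labelled libraries 2 and 5 there were 1035 called genes with age, 2 of them members, and 119 for the label over young controls. Over aged controls Sod1 turned to -0.17, Gpx1 to -0.26, Prdx1 to -0.070 and Txnip to 0.052, and over young controls Gpx1 to -0.17 and Gpx4 to -0.018. With aged control 5 left out too there were 2214 called genes with age, 4 of them members, and 334 over aged controls, with Sod1 at -0.23, Gpx1 at -0.30 and Prdx1 at -0.033 over aged controls and Gpx1 at -0.17 and Gpx4 at -0.018 over young controls. Fits of 2 groups called 1011 genes with age, 2 of them members, and 77 over aged controls. A mean FPKM of at least 5 left 265, 113 and 120 called genes in the 3 comparisons. Sex as a covariate gave 429 over young controls and turned Gpx3 to -0.030 and Gpx4 to 0.0084 over aged controls. For sex, 860 genes were called with no filter and 908 with no group covariate, which called 0 members.

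With 1 library left out, called genes numbered 302 (without aged control 1) to 931 (without aged control 5) with age, 91 to 225 over aged controls (the same 2 libraries), 98 (without young control 1) to 668 (without labelled library 4) over young controls, and 513 (without aged control 5) to 2872 (without young control 1) for sex, and called members 1 to 2, 0, 1, and 1 to 4. Ranges that crossed 0 were, over aged controls, Gpx1 -0.16 to 0.15, Gpx3 -0.26 to 0.64, Gpx4 -0.19 to 0.10, Prdx1 -0.044 to 0.13 and Txnip -0.17 to 0.036. Over young controls it was Gpx1 at -0.073 to 0.24, and for sex Foxo1 at -0.052 to 0.081, Foxo3 at -0.078 to 0.11 and Txnip at -0.14 to 0.055.

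Same-numbered libraries were not more alike than others: their deviations correlated at -0.455 to 0.527 over 15 pairs (median -0.037), against -0.564 to 0.471 for other pairs (median 0.0082). Because the numbers follow sex within each group, this cannot show whether the numbers pair the libraries. With the replicate block 499, 152 and 158 genes were called, and Gpx3 in the same 2 comparisons, and the Cited2 call for the label over aged controls was lost (adjusted p = 0.0607). Precision is limited by 5 libraries a group and, for Gpx3 in young controls, by as few as 66 reads. The cause of these changes was not tested.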
